A study of Mus musculus with 247 samples.

Results

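The genes described here are 36 genes of the integrated stress response: 12 stress regulators, 9 enzymes of amino acid and one-carbon metabolism, 3 amino acid transporters and 12 aminoacyl-tRNA synthetases. They were chosen by name, with earlier results of these data known, and 35 of the 36 were found among the 14378 genes of the RNA-seq table. Vldlr, a lipoprotein receptor, was not analysed here at the RNA level. Sites assigned to these genes as the nearest gene were taken from the chromatin tables: 156 of 73206 ATAC-seq sites, 115 of 52093 PU.1 sites, 142 of 58888 JunB sites, 69 of 26718 MED1 sites and 63 of 23360 RNA polymerase II sites. All cells were RAW264.7, a macrophage line of the BALB/c mouse strain. Wild-type cells (WT) were compared with cells in which Gps2 was knocked out by CRISPR (KO). Gps2 encodes a subunit of the nuclear corepressor complex. Poly(A) RNA-seq covered 4 groups of 4 libraries: untreated WT, untreated KO, and WT and KO after 6 h with 10 ng/ml lipopolysaccharide (LPS), an outer membrane molecule of bacteria that switches macrophages to an inflammatory state. ATAC-seq, which reads open chromatin, covered 3 untreated KO and 3 untreated control libraries, the controls being labelled both as CRISPR controls and as WT. ChIP-seq after crosslinking with DSG and formaldehyde covered 2 libraries a group, for PU.1 and JunB in all 4 groups (LPS for 2 h), and for MED1 and RNA polymerase II in WT and KO with LPS for 2 h. The labels do not say whether the KO cells are 1 clone, nor whether the RNA libraries came from separate cultures, so p-values measure only the spread between these libraries, which may be technical.

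In the integrated stress response, kinases that sense amino acid shortage, misfolded protein in the endoplasmic reticulum, haem shortage or viral RNA phosphorylate the initiation factor eIF2. Bulk translation falls while the mRNA of the transcription factor ATF4 is translated more. ATF4, with C/EBP partners, then induces genes for amino acid synthesis and import, for charging of transfer RNA, and for feedback regulators of the pathway. In macrophages the pathway is known to meet inflammatory signalling, since activation raises the demand for cystine and other amino acids.

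The Gps2 transcript fell from 434 ± 18.5 normalised reads in WT to 132 ± 2.38 in KO, and from 440.5 ± 36.7 to 90.3 ± 9.60 with LPS (mean ± SD, n = 4), a log2 change of -1.70 and -2.28. Normalised reads are the deposited reads per 10000000 mapped reads, divided by a scaling factor for each library. The RNA-seq libraries held between 12094928 and 22968584 mapped reads. Macrophage markers (9 genes) summed to between 77384 and 122975 normalised reads in every library, and the 2 of 8 lymphocyte markers in the table to at most 1.92. Library 4 of WT with LPS stood apart from the other 3: against their mean, 22 of the 35 genes were higher and 13 lower in it, from -1.56 for Sesn2 to 1.05 for Ddit3 on the log2 scale. Across the 35 genes that deviation had a Spearman rho of -0.60 with transcript length, and -0.64 across the 11791 genes tested (a description, since the genes share these libraries). Its part in the results was not tested, and results are given with and without this library where its removal changes a call or moves a called value by over 1.5 times.

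Without LPS, all 35 genes were called higher in KO than in WT; in bulk RNA, more expressing cells and more RNA per cell cannot be told apart. The median log2 change was 0.96, against 0.01 over the 11791 genes tested, where 18% were called higher and 17.5% lower. The 35 genes were chosen with earlier results of these data known, so this contrast with all genes is a description. Without library 4 of WT with LPS, which enters the shared estimate of the spread, the calls over all genes rose to 30.2% and 29.1%, and the 35 genes were again called higher. Each call is an adjusted p under 0.05 (limma, two-sided, Benjamini-Hochberg over all genes tested), and log2 changes are on the log2(value + 1) scale with their standard error. In each of the 35 genes the lowest KO library lay above the highest WT library, which was so for 27.9% of the genes tested, and the reverse for 27.3%. By role, the median was 1.23 over 11 regulators, 0.89 over 9 enzymes, 1.07 over 3 transporters and 0.73 over 12 synthetases. The changes ran from 0.17 for Mars, the methionyl-tRNA synthetase, to 4.22 for Cth, the enzyme that releases cysteine from cystathionine. Scaling by library totals alone moved the median of all genes to -0.07 and the calls from 2122 higher and 2058 lower to 1561 and 2802. With that scaling 34 of the 35 genes were still called higher, and Mars, at 0.09, was not.

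**Figure D1:**
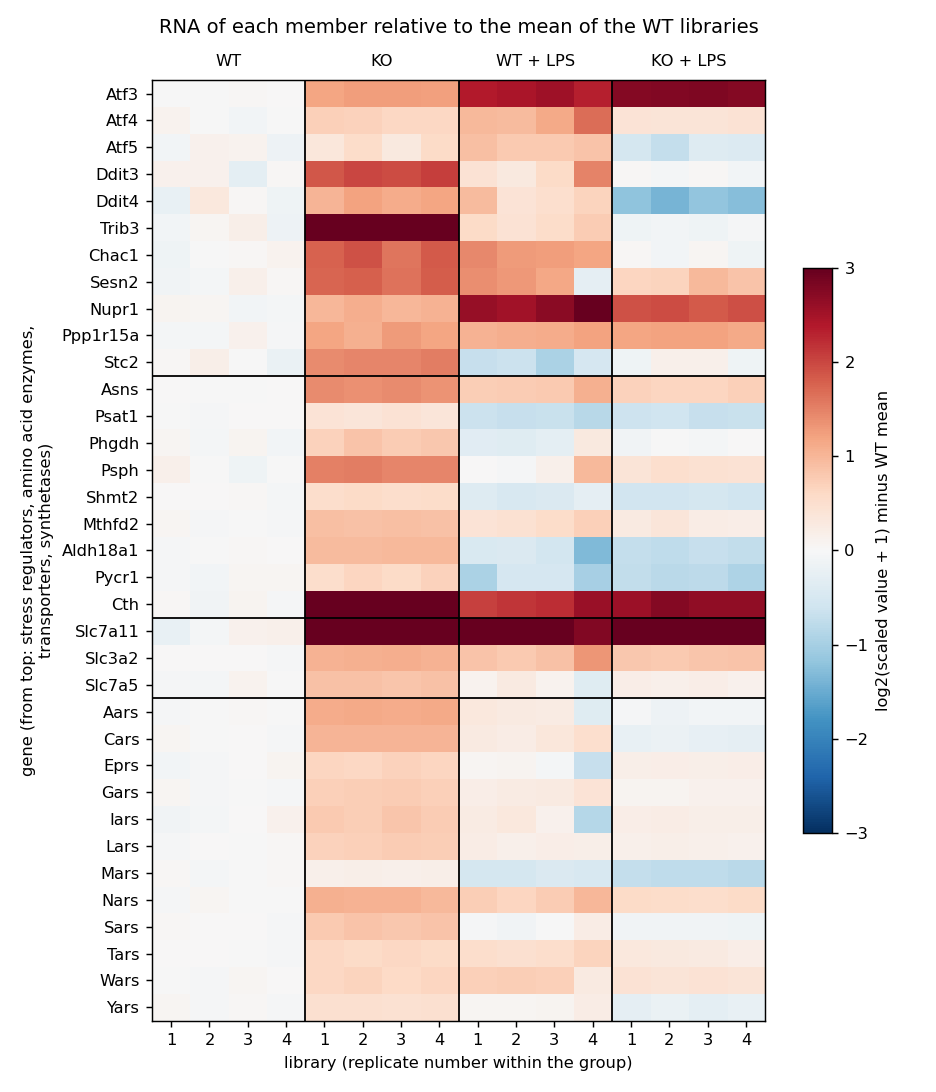
RNA of the 35 genes (rows, grouped by role) in the 16 libraries (columns), as log2(normalised reads + 1) minus the mean of the 4 WT libraries; the colour scale ends at -3 and 3. All 4 untreated KO columns are above WT in each row, and library 4 of WT with LPS differs from its group in several rows.

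The promoters of the genes were searched for the C/EBP-ATF composite element, the sequence class to which ATF4 binds with a C/EBP partner. RefSeq promoter windows of GRCm38.p6, from 250 bases before to 50 after a transcription start, were at hand for 30 of the 36 genes; Cth, Slc7a5, Cars, Lars, Nars and Wars had none. The letters TGATGNAAN, on either strand, stood in a window of 13 of these 30 genes (43.3%), against 4.50% of 27025 gene symbols with a window. Several of these genes are known ATF4 targets and were listed for that reason, so this share is a description. By role, a match stood in 5 of 8 synthetases, 5 of 12 regulators, 2 of 8 enzymes and 1 of 2 transporters, and among the wider lists described below in 6 of 21 other ATF4 targets (28.6%) and in none of 5 other cytosolic synthetases, 14 mitochondrial synthetases or 18 genes of the unfolded protein response. Genes with a match (12 with RNA) had a median untreated log2 change of 1.08, from 0.48 to 3.11. Genes with a window but no match (17) had 0.89, from 0.17 to 1.97, and the 6 without a window 0.94, from 0.63 to 4.22. These ranges overlap. A match outside the windows would not be seen, and the part of the element in these changes was not tested. The following stretches before the transcription start show where the element lies in 8 of the genes whose RNA is described below. They are written 5′ to 3′ on the gene's strand, with the matching letters in capitals, and placed by exact match on mm9. Those of Nupr1 and Asns are cut to 29 bases, since an annotated exon overlaps the longer stretch around the element. Matches before the start of Aars (-113) and Vldlr (-201) are not shown.

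Slc7a11, chr3:50247536-50247641, minus strand, 2 matches: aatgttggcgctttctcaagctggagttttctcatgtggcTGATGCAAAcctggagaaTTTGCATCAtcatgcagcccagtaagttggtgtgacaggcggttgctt
Chac1, chr2:119176744-119176832, plus strand: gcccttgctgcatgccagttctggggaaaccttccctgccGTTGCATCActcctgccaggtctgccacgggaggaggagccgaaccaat
Atf3, chr1:193007275-193007363, minus strand: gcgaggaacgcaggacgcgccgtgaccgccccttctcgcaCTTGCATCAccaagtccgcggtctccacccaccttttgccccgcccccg
Nupr1, chr7:133769077-133769105, minus strand: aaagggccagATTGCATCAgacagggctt
Asns, chr6:7643214-7643242, minus strand: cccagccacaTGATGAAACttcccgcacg
Pycr1, chr11:120505117-120505205, minus strand: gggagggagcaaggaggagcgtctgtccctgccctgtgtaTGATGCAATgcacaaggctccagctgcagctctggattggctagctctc
Gars, chr6:54987924-54987994, plus strand: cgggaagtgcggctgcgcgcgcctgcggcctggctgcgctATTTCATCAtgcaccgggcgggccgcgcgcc
Tars, chr15:11329414-11329469, minus strand: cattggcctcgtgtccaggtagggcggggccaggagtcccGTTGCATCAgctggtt

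The first of the regulators are transcription factors and a cofactor. Atf4 (chromosome 15:80085614-80087975, plus strand), which encodes the factor at the centre of the response, read 3403, 3129, 3009.8 and 3149 in WT and 5174, 5113, 4887 and 4900.1 in KO. With LPS Atf4 read 6183, 6137, 6955 and 10075 in WT and 4236, 4152, 4173 and 4281 in KO. Untreated KO libraries were all above WT, by 0.66 ± 0.12 (adjusted p = 3.08e-04), and with LPS the order was turned round, with all 4 KO libraries below all 4 WT libraries. Atf4 changed by -0.77 ± 0.12 in KO against WT with LPS (adjusted p = 6.50e-05), and by -0.61 without WT library 4. Ddit3 (chromosome 10:126727849-126733344, plus strand) encodes CHOP, a C/EBP family factor linked to prolonged stress and cell death. It read 242, 239.7, 179 and 225 in WT and 803, 879.7, 851 and 924 in KO. With LPS Ddit3 read 299, 269.8, 327 and 621 in WT and 226, 212, 224 and 208 in KO. The untreated KO libraries stood 3.91-fold above WT (log2 1.97 ± 0.19, adjusted p = 6.64e-07), and KO with LPS was back at the level of untreated WT. With LPS Ddit3 differed by -0.72 ± 0.19 in KO against WT (adjusted p = 0.00638), and by -0.45, still called, without WT library 4. Ddit3 shares 68 bases with Mars on the opposite strand, and reads there cannot be told apart if the counting, which is not given in the sources used here, ignored strand.

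Atf3 (chromosome 1:192994176-193007212, minus strand), a factor induced by stress and by toll-like receptors, read 417, 417, 431 and 422 in WT and 964, 1006, 1010.4 and 998 in KO. With LPS Atf3 read 2204, 2306, 2455 and 2123 in WT and 2870.2, 2895, 2926 and 2864 in KO. It was higher in KO in both conditions, by 1.23 ± 0.05 untreated (adjusted p = 1.85e-11) and by 0.35 ± 0.05 with LPS (adjusted p = 3.36e-05), and LPS raised it in both genotypes. Atf5, an ATF4-related factor, read 359, 414, 406 and 344 in WT and 477, 556, 468 and 567 in KO. With LPS Atf5 read 712, 656, 654 and 691 in WT and 261, 231, 289.6 and 286 in KO. Its direction turned with LPS, from 0.44 ± 0.09 (adjusted p = 0.0011) to -1.35 ± 0.09 (adjusted p = 8.66e-09), with no overlap of the libraries in either condition. Atf5 overlaps Nup62 over 571 bases and Il4i1b over 289 bases on the opposite strand. Nup62 had a mean of 1637 in untreated WT and 1975 in untreated KO, and Il4i1b 49.6 and 47.5. As at Ddit3, reads in the shared bases cannot be told apart if the counting ignored strand. Nupr1, a small chromatin-associated stress protein, read 349, 342, 314 and 319 in WT and 659, 700.0, 662 and 687 in KO. With LPS Nupr1 read 2029, 1914, 2151 and 3525 in WT and 1247, 1280.0, 1191 and 1268 in KO. KO raised it 2.04-fold without LPS (log2 1.03 ± 0.14, adjusted p = 2.17e-05), LPS raised it 7.03-fold in WT, and in KO with LPS it lay below WT with LPS by -0.90 ± 0.14 (adjusted p = 7.27e-05; -0.70 without WT library 4).

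The feedback regulators and effectors held the largest changes of the regulators. Trib3 (chromosome 2:152163161-152169796, minus strand), a pseudokinase that binds ATF4 and CHOP and restrains them, read 92.1, 101, 109.9 and 88.2 in WT and 829.6, 872, 782 and 835 in KO. With LPS Trib3 read 145, 133, 143 and 166 in WT and 88.6, 91.6, 88.7 and 94.7 in KO. Untreated KO stood 8.42-fold above WT (log2 3.07 ± 0.08, adjusted p = 1.29e-13), while with LPS the 4 KO libraries lay below the 4 WT libraries (log2 -0.68 ± 0.08, adjusted p = 5.16e-06). Chac1 (chromosome 2:119176978-119180062, plus strand), the enzyme that degrades glutathione in the cytosol, read 100.4, 108, 112 and 117 in WT and 373, 412, 334 and 396 in KO. With LPS Chac1 read 299, 264.8, 264 and 249 in WT and 113, 103, 114 and 99.4 in KO. Untreated WT and KO with LPS were low and overlapped each other. WT with LPS lay above both, and untreated KO above WT with LPS, without overlap. The log2 change was 1.78 ± 0.08 without LPS (adjusted p = 9.30e-11) and -1.32 ± 0.08 with it (adjusted p = 4.30e-09). Ddit4, an inhibitor of the growth kinase mTORC1, read 108, 159, 129 and 115 in WT and 258, 293, 274 and 286 in KO. With LPS Ddit4 read 243, 168, 179 and 199 in WT and 54.1, 47.5, 54.9 and 51.6 in KO. It was 2.19-fold higher in untreated KO (log2 1.13 ± 0.12, adjusted p = 2.47e-06), and KO with LPS fell below every other group, by -1.89 ± 0.12 against WT with LPS (adjusted p = 7.18e-09), the largest fall among the 35 genes in that comparison.

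Sesn2, a leucine sensor that also restrains mTORC1, read 159, 163, 189.5 and 174 in WT and 579, 596, 532 and 605 in KO. With LPS Sesn2 read 449, 423, 385 and 141 in WT and 269.7, 272, 339 and 309.8 in KO. Library 4 of WT with LPS lay below every untreated WT library, while the other 3 lay above them. Untreated KO was higher by 1.75 ± 0.26 (adjusted p = 6.86e-05); with LPS the difference was -0.11 ± 0.26 (adjusted p = 0.755) with that library, and -0.50, called lower, without it. Stc2, a secreted glycoprotein induced by stress of the endoplasmic reticulum, read 94.0, 104, 91.2 and 80.8 in WT and 249.8, 256, 254 and 268 in KO. With LPS Stc2 read 56.9, 58.4, 47.0 and 65.0 in WT and 84.0, 102, 102 and 84.1 in KO. Here KO was higher in both conditions, by 1.47 ± 0.11 (adjusted p = 2.14e-08) and 0.71 ± 0.11 (adjusted p = 6.69e-05), while LPS lowered it in both genotypes. Ppp1r15a encodes GADD34, which brings a phosphatase to eIF2 and so ends the response; it overlaps Tulp2 by 10 bases on the opposite strand. It rose 2.26-fold in untreated KO, from 186 ± 12.4 to 422 ± 23.8 (adjusted p = 3.87e-10), and read 405 ± 18.96 and 423 ± 8.55 in WT and KO with LPS, so the untreated KO level lay at the level of both LPS groups.

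**Figure D2:**
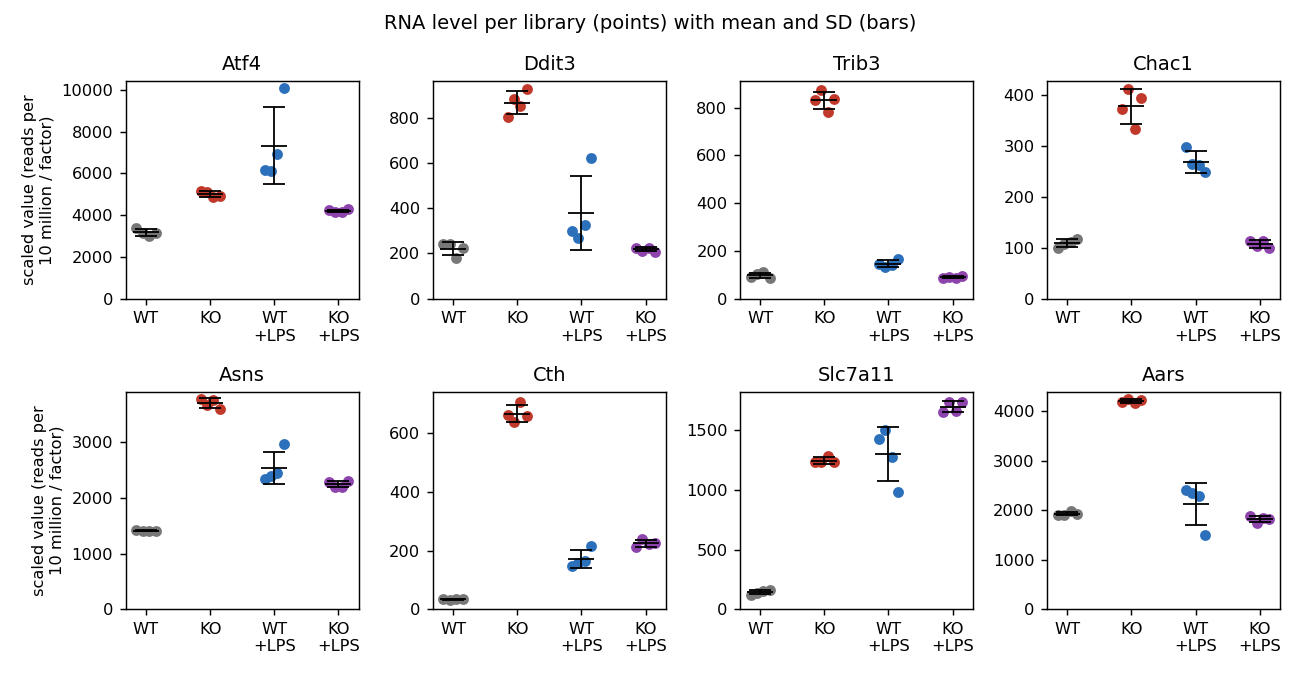
RNA of 8 of the genes (panels; normalised reads) in each library, with the group mean and SD as bars (n = 4). Untreated KO is above untreated WT in all panels; with LPS the KO points lie below WT for Atf4, Ddit3, Trib3, Chac1 and Asns and above it for Slc7a11.

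All 9 enzymes were called higher in untreated KO. Cth (chromosome 3:157557212-157588027, minus strand), the last enzyme of the path from methionine to cysteine, read 35.9, 32.4, 36.9 and 34.1 in WT and 661, 637, 707 and 657 in KO. With LPS Cth read 147, 158, 166 and 214 in WT and 211, 239.6, 224 and 225 in KO. It rose 18.6-fold in KO (log2 4.22 ± 0.10, adjusted p = 4.63e-14), and with LPS the groups came within 1.32-fold of each other and overlapped (0.40 ± 0.10, adjusted p = 0.00306). Asns (chromosome 6:7625165-7643209, minus strand), asparagine synthetase and a textbook ATF4 target, read 1427, 1405, 1396 and 1410.0 in WT and 3768, 3657, 3750.1 and 3586 in KO. With LPS Asns read 2336, 2388, 2444 and 2957 in WT and 2278, 2192, 2195 and 2304 in KO. Its untreated change was 1.39 ± 0.06 (adjusted p = 8.19e-11). The small fall with LPS, -0.17 ± 0.06 (adjusted p = 0.0417), was without overlap of the libraries. It came to -0.09, still called, without WT library 4, and was no longer called in 4 other settings, nor when most of the libraries were left out singly. Psph, the last enzyme of serine synthesis, read 427, 382, 352 and 384 in WT and 1093, 1122, 1070.4 and 1059 in KO. With LPS Psph read 391, 377, 431 and 759 in WT and 501, 548, 533 and 524 in KO. It rose 2.81-fold in untreated KO (log2 1.49 ± 0.16, adjusted p = 2.02e-06) and was not called with LPS (0.17 ± 0.16, adjusted p = 0.409), though without WT library 4, which was high, it was called higher, at 0.40.

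Aldh18a1, which makes the first committed intermediate of proline, read 1200.2, 1222, 1258 and 1253 in WT and 2383, 2390.2, 2437 and 2415 in KO. With LPS Aldh18a1 read 893, 916, 836 and 489 in WT and 753, 730.3, 759.6 and 744 in KO. KO was higher untreated, by 0.96 ± 0.14 (adjusted p = 5.74e-05), and LPS lowered it in WT (-0.70 ± 0.14) and further in KO (-1.69 ± 0.14). With LPS the genotypes differed by -0.03 ± 0.14 (adjusted p = 0.891), and by -0.24, called lower, without WT library 4. Mthfd2, a mitochondrial enzyme of one-carbon metabolism, read 2181, 2049, 2078 and 2047 in WT and 3904, 3810.1, 3885 and 3854 in KO. With LPS Mthfd2 read 2787, 2886, 3051 and 3445 in WT and 2513, 2667, 2435 and 2414 in KO. It went from 0.89 ± 0.06 without LPS (adjusted p = 1.15e-08) to -0.28 ± 0.06 with LPS (adjusted p = 0.00188), in both cases with no overlap. Shmt2, which moves the serine carbon onto folate in mitochondria and shares 32 bases with Ndufa4l2 on the opposite strand, read 4993, 4946, 5055 and 4782 in WT and 7169, 7314, 7111 and 7293 in KO. With LPS Shmt2 read 3783, 3518, 3664 and 4125 in WT and 3331, 3325, 3406 and 3246 in KO. Its changes were of the same pattern and smaller, 0.55 ± 0.05 (adjusted p = 3.25e-07) and -0.18 ± 0.05 (adjusted p = 0.0087). Phgdh and Psat1, which begin serine synthesis, rose in untreated KO by 0.78 and 0.39, and Pycr1, which ends proline synthesis, by 0.61. None of these 3 was called in KO against WT with LPS (0.14, 0.06 and -0.08), although Phgdh was called higher, at 0.29, without WT library 4.

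The 3 transporters include both subunits of the cystine importer. Slc7a11 (chromosome 3:50168858-50247535, minus strand), its transport subunit, read 123, 137, 157 and 159.5 in WT and 1229.8, 1229, 1283 and 1233 in KO. With LPS Slc7a11 read 1428, 1496, 1277 and 985 in WT and 1649, 1733, 1657 and 1732 in KO. KO raised it 8.62-fold without LPS (log2 3.11 ± 0.11, adjusted p = 6.69e-12) and LPS raised it 8.88-fold in WT, so untreated KO stood at the level of WT with LPS. KO with LPS was the highest group, 0.40 ± 0.11 above WT with LPS (adjusted p = 0.00779). Slc3a2, the heavy chain shared by this importer and the leucine transporter, read 1867, 1869.9, 1873 and 1811 in WT and 3851, 3908, 3932 and 3851 in KO. With LPS Slc3a2 read 3380.2, 3199, 3405 and 4663 in WT and 3247, 3215, 3302 and 3375 in KO. It was higher, by 1.07 ± 0.09, in untreated KO (adjusted p = 9.33e-08), and the libraries of the genotypes overlapped with LPS (-0.14 ± 0.09, adjusted p = 0.201; -0.02 without WT library 4). Slc7a5, the light chain of the leucine transporter, read 1906, 1858, 2087 and 1948 in WT and 3590.5, 3606, 3447 and 3559 in KO. With LPS Slc7a5 read 2106, 2347, 2113 and 1521 in WT and 2251, 2151, 2254 and 2141 in KO. Its untreated change was 0.87 ± 0.10 (adjusted p = 3.67e-06), and with LPS it was 0.14 ± 0.10 (adjusted p = 0.256; 0.01 and not called without WT library 4).

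The 12 synthetases, which load each amino acid onto its transfer RNA, moved over a narrower range, and all were called higher in untreated KO. Aars (chromosome 8:113557742-113579469, plus strand), for alanine, had the largest change and read 1903, 1915, 1993 and 1932 in WT and 4189, 4256, 4172 and 4229 in KO. With LPS Aars read 2401, 2349, 2291 and 1503 in WT and 1881, 1751, 1842 and 1829 in KO. It was 2.18-fold higher in untreated KO (log2 1.12 ± 0.11, adjusted p = 7.63e-07); with LPS the difference was -0.20 ± 0.11 (adjusted p = 0.146), and -0.36, called lower, without WT library 4, which was low. Nars, for asparagine, was the most abundant and read 3983, 4221, 4001 and 4007 in WT and 8476, 8356, 8317 and 7984 in KO. With LPS Nars read 6711, 6331, 6852 and 8142 in WT and 6029.6, 5972, 5859.7 and 6038 in KO. Both shifts held without overlap, 1.03 ± 0.06 untreated (adjusted p = 2.75e-09) and -0.22 ± 0.06 with LPS (adjusted p = 0.00962). Cars, for cysteine, read 1185, 1125, 1146 and 1117 in WT and 2336, 2308, 2304 and 2330.4 in KO. With LPS Cars read 1370.5, 1343, 1442 and 1617 in WT and 984, 1019, 961 and 943 in KO. It showed the largest fall of the synthetases in KO with LPS, -0.56 ± 0.06 (adjusted p = 1.05e-06), after 1.02 ± 0.06 without LPS (adjusted p = 8.58e-10).

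Sars, for serine, read 3649, 3586, 3565 and 3449.8 in WT and 6175, 6404, 6236 and 6414 in KO. With LPS Sars read 3492, 3295, 3549 and 4132 in WT and 3318, 3312, 3285 and 3233 in KO. All 4 untreated KO libraries lay above every other library (0.82 ± 0.06 against WT, adjusted p = 1.68e-08), and with LPS the genotypes overlapped (-0.13 ± 0.06, adjusted p = 0.0781; -0.07 and not called without WT library 4). Iars, for isoleucine, read 2178, 2235, 2359.6 and 2546 in WT and 4016, 3849, 4109.6 and 3946 in KO. With LPS Iars read 2762, 2899.6, 2544 and 1282 in WT and 2683, 2695, 2644 and 2615 in KO. Library 4 of WT with LPS was the lowest of all 16, and the error of its contrasts was the widest of the synthetases: 0.77 ± 0.18 untreated (adjusted p = 0.00332) and 0.23 ± 0.18 with LPS (adjusted p = 0.305). Without that library the second value turned to -0.04, not called. Eprs, for glutamate and proline, read 2900.1, 3031, 3128 and 3279 in WT and 4823, 4729.5, 4988 and 4829 in KO. With LPS Eprs read 3187, 3246, 2969 and 1916 in WT and 3459, 3542, 3482 and 3518 in KO. It alone among the synthetases was called higher in KO in both conditions, at 0.65 ± 0.12 (adjusted p = 5.67e-04) and 0.34 ± 0.12 (adjusted p = 0.0341); the second was 0.16, still called, without WT library 4.

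Tars, for threonine, read 2206, 2214, 2166 and 2129 in WT and 3367, 3231, 3347 and 3263 in KO. With LPS Tars read 3123, 3033, 3138 and 3482 in WT and 2713, 2680.2, 2614 and 2518 in KO. Yars, for tyrosine, read 1498, 1399, 1470.5 and 1411 in WT and 1999, 2021, 1996 and 2021 in KO. With LPS Yars read 1507, 1514, 1530.5 and 1675 in WT and 1207, 1257, 1176 and 1237 in KO. For these 2 genes the sign turned with LPS, from 0.60 ± 0.05 to -0.28 ± 0.05 (Tars, adjusted p = 3.20e-04) and from 0.48 ± 0.05 to -0.35 ± 0.05 (Yars, adjusted p = 2.68e-05). Mars, the partner of Ddit3 on the opposite strand, read 2034, 1918, 1977 and 2021 in WT and 2216, 2241, 2226 and 2251 in KO. With LPS Mars read 1385, 1373, 1476 and 1430.3 in WT and 1201, 1179.6, 1171 and 1139.8 in KO. Its untreated change was the smallest of all, 0.17 ± 0.04 (adjusted p = 0.00632), with no overlap of the libraries, and with LPS it was -0.27 ± 0.04 (adjusted p = 1.17e-04). The remaining synthetases were Gars, Lars and Wars, for glycine, leucine and tryptophan; Wars is also known as an interferon-induced gene. They rose by 0.73, 0.72 and 0.63 without LPS, and with LPS changed by -0.18 (Gars, called), -0.03 and -0.19 (neither called; Wars -0.31 and called without WT library 4).

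With LPS the genes no longer shared a direction. KO against WT with LPS, 5 of the 35 genes were called higher, 16 lower and 14 not called, against 22.1% higher and 22.1% lower (44.1% in all) over the genes tested. The median was -0.17 against 0.00. Without WT library 4 the counts were 7 higher, 20 lower and 8 not called, against 28.8% higher and 29% lower over the genes tested. The 5 higher genes were Atf3, Stc2, Cth, Slc7a11 and Eprs, and the falls were deepest among the regulators, 7 of 11, with a median of -0.72. In 16 genes all 4 KO libraries lay below all 4 WT libraries and in 4 genes above, where 19.4% and 20.1% of all genes did so. Among the enzymes 3 of 9 were called lower and 1 higher, among the transporters 1 of 3 higher, and among the synthetases 6 of 12 lower and 1 higher.

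**Figure D3:**
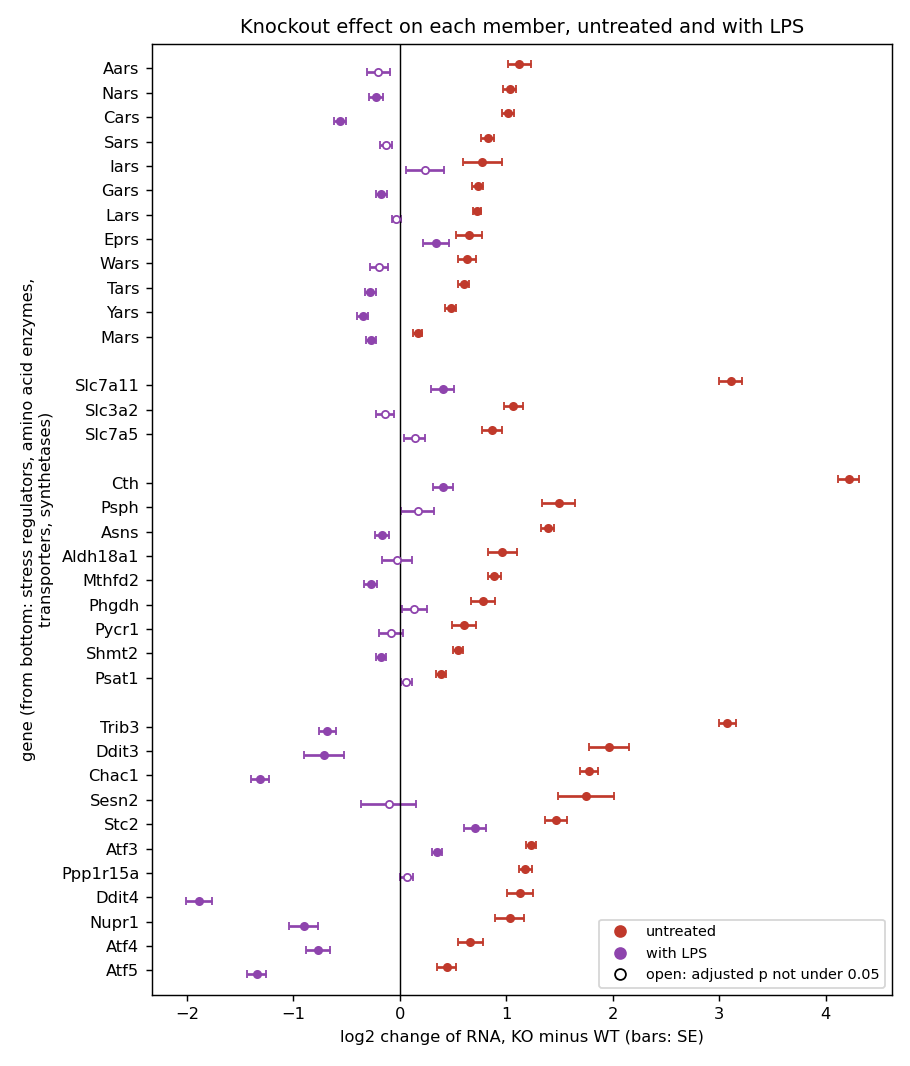
Log2 change of RNA in KO against WT (x axis, with SE bars) for each gene, untreated in red and with LPS in purple, filled where the adjusted p was under 0.05. All red points lie above 0, from 0.17 to 4.22, and the purple points spread from -1.89 to 0.71.

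The response to LPS differed between the genotypes in nearly all of these genes. LPS in WT raised 21 and lowered 6 of the 35 genes (background 34.2% and 36.2%, 70.4% in all). Without WT library 4 it raised 24 and lowered 7 (background 39.3% and 40.9%), since Slc7a5 (0.17), Aars (0.28) and Iars (0.23) were then called higher and Phgdh (-0.33) lower. That split became 11 and 16 with scaling by library totals, which moved the median of all genes from -0.02 to -0.48 and the calls over all genes from 4027 higher and 4270 lower to 1971 and 7046. LPS in KO raised 3, Atf3, Nupr1 and Slc7a11, and lowered 30 (background 31.5% and 36.1%; 3 and 31 without WT library 4, background 39% and 42.3%). With library totals these became 2 and 32, and the calls over all genes went from 3715 higher and 4259 lower to 1987 and 6780; Slc7a11 was not called then. In WT all 4 LPS libraries lay above the untreated ones in 21 genes and below in 6 (28.7% and 31.8% of genes tested), and in KO above in 3 and below in 31 (37.6% and 40.3%). The direct test of the difference, the KO response minus the WT response, was lower for 33 genes and higher for none, against 10.4% and 10.2% over all genes, with a median of -1.11 against -0.02. The 2 genes not called were Eprs (-0.31 ± 0.17, adjusted p = 0.235) and Iars (-0.54 ± 0.26, adjusted p = 0.163); without WT library 4 they were -0.49 and -0.81, and all 35 were called lower, against 19.9% lower and 19.2% higher over all genes. Since the 4 contrasts share groups, the untreated, LPS and difference values of a gene are not independent of each other.

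By role, the regulators had a median of -1.86, with Trib3 at -3.76 ± 0.11 (adjusted p = 7.06e-12), Chac1 at -3.09 ± 0.12 and Ddit4 at -3.02 ± 0.17 the farthest. LPS raised all 3 in WT and lowered all 3 in KO, although with library totals the WT rise of Trib3 and Ddit4 was not called. Enzymes had a median of -0.99, from -3.81 ± 0.14 for Cth to -0.33 ± 0.07 for Psat1, and LPS lowered each of the 9 in KO. For the transporters the values were -2.71 ± 0.16 for Slc7a11, -1.21 ± 0.12 for Slc3a2 and -0.73 ± 0.14 for Slc7a5. Synthetases had a median of -0.85, with Cars at -1.58 ± 0.08, Aars at -1.32 ± 0.15 and Nars at -1.25 ± 0.09 in front, and each of the 12 fell with LPS in KO, from -0.22 for Wars to -1.25 for Cars. Atf4 differed by -1.43 ± 0.16 (adjusted p = 1.10e-05): LPS raised it in WT by 1.18 ± 0.12, and in KO the change was -0.25 ± 0.12 (adjusted p = 0.0638), which was called lower with library totals (-0.64), with only the groups compared in the fit, and without library 4 or library 2 of WT with LPS.

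Untreated KO was the group with the highest mean for 29 of the 35 genes, including each of the 9 enzymes and 12 synthetases. WT with LPS was highest for Atf4, Atf5 and Nupr1, and KO with LPS for Atf3, Ppp1r15a and Slc7a11; for Ppp1r15a the libraries of untreated KO and of both LPS groups overlapped. Per kilobase of transcript, which allows genes to be compared, Psat1 had the highest mean level in WT (3509.8 normalised reads per kb) and Slc7a11 the lowest (15.6). In untreated KO the lowest was Pycr1 (68.9) and Slc7a11 reached 135; Psat1 remained highest at 4591. With LPS Atf4 led in both genotypes, at 4256 per kb in WT and 2442 in KO. Libraries of a group lay close together: the median coefficient of variation over the 35 genes was 5.05% in WT, 2.30% in KO and 2.90% in KO with LPS, and 13.1% in WT with LPS, the group with the library that stood apart.

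Other genes of the pathway were read from lists that, like the 36 genes, were drawn up with earlier results of these data known. Each count of untreated calls stands beside the share over all genes tested, 18% higher and 17.5% lower. Without library 4 of WT with LPS that share was 30.2% and 29.1%. Among 23 tested further ATF4 targets, 20 were called higher and none lower in untreated KO (20 and 2 without that library), with a median of 0.54. The difference of the LPS responses was lower for 17 and higher for 1 (10.4% and 10.2% over all genes). Without that library it was lower for 19 and higher for 1 (19.9% and 19.2%). Gadd45a, a growth arrest gene, went from 17.05 ± 2.92 to 205 ± 15.2 normalised reads (log2 3.52 ± 0.17, adjusted p = 2.48e-10), and Gdf15, a secreted stress cytokine, from 2.22 ± 0.907 to 33.2 ± 4.16 (log2 3.45 ± 0.33, adjusted p = 5.99e-07). The kinases of eIF2, their cofactors, eIF2 and eIF2B gave 3 higher and 3 lower of 15, shares near those over all genes, with a median of -0.04. Without that library they gave 5 higher and 6 lower. The 3 higher included Impact, an inhibitor of the amino acid sensing kinase (0.67 ± 0.13), and Eif2s2, the beta subunit of eIF2 (0.62 ± 0.09). C/EBP and ATF partners gave 4 higher and 2 lower of 14 (7 and 2 without that library), median 0.11. Cebpa fell by -1.32 ± 0.08 (adjusted p = 2.92e-09), and Cebpb was not called in the untreated groups (1097 ± 84.2 in WT and 1100.0 ± 82.9 in KO) and was lower in KO with LPS by -1.51 ± 0.17 (adjusted p = 3.43e-06).

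Of 8 further cytosolic synthetase genes 3 were called higher and 2 lower in untreated KO, median -0.01 (3 and 3 without library 4 of WT with LPS). Rars, for arginine, rose by 0.78 ± 0.05 (adjusted p = 4.15e-09) and Farsb, a subunit of the phenylalanine enzyme, by 0.40 ± 0.06 (adjusted p = 9.42e-05). Genes listed for mitochondrial synthetases gave 1 higher, Mars2 (0.21 ± 0.06, adjusted p = 0.0201), and 2 lower of 17 (background 18% and 17.5%), median -0.05, with Vars2 at -0.47 ± 0.10 (adjusted p = 0.00182). Without that library they gave 4 higher and 3 lower. Genes of the endoplasmic reticulum's unfolded protein response, the neighbouring stress pathway, gave 9 higher and 1 lower of 20 (11 and 2 without that library), median 0.10. The sensor kinase Ern1 rose by 1.24 ± 0.30 (adjusted p = 0.00446), and Edem1, of the disposal path for misfolded proteins, by 0.38 ± 0.04 untreated and 0.83 ± 0.04 with LPS. Genes handling serine, glycine, proline and cysteine beyond the 9 enzymes gave none higher and 5 lower of 13 (2 and 9 without that library), median -0.23, with Prodh, which breaks proline down, at -2.50 ± 0.34 (adjusted p = 3.02e-05) from a low level. Gclc, which begins glutathione synthesis, read -0.26 ± 0.11 untreated (adjusted p = 0.085) and 0.58 ± 0.11 with LPS (adjusted p = 5.99e-04). Macrophage markers moved too, 5 higher and 1 lower of 9 (7 and 1 without that library), with changes from -0.64 to 1.41. Fcgr3 rose by 1.41 ± 0.08 and Csf1r by 0.33 ± 0.11. The summed level of the 9 markers was 83900 to 92790 in WT and 116581 to 122975 in KO. The part of these markers in the results was not tested.

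**Figure D4:**
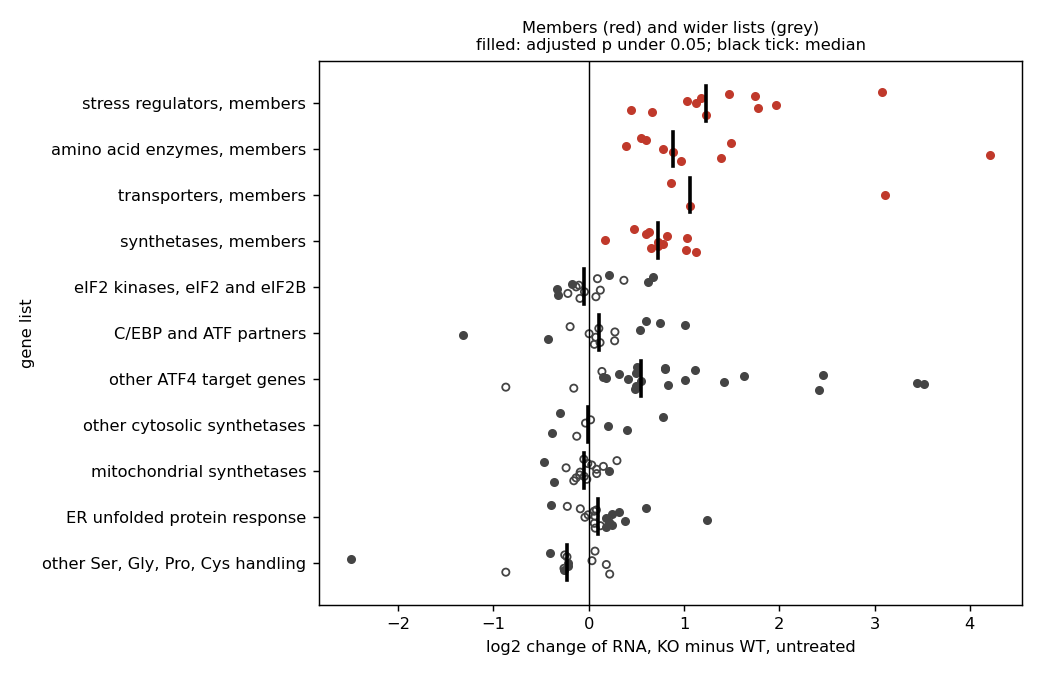
Log2 change of RNA in untreated KO against WT (x axis) for each gene of the 4 roles (red) and of 7 wider lists (grey), filled where the adjusted p was under 0.05; the black tick is the list's median. Red medians run from 0.73 to 1.23, and of the grey lists the other ATF4 targets have the highest, 0.54.

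Most sites of open chromatin at these genes were not called changed in untreated KO. Of 156 ATAC-seq sites assigned to 35 of the genes, 11 were called higher in KO and none lower (limma on the deposited log2 values, background 4.04% and 3.16% of 73206 sites), and the median change was 0.04. The 11 came down to 3 when the spread was not modelled on the mean or when the first control library was left out. Over all 73206 sites 1423 and 1747 were then called higher. Within 1 kb of a transcription start, 4 of 35 sites were called higher and none lower, against 2.15% and 4.16% of the 11732 such sites of all genes, and the median was 0.06 beside -0.01. The change was positive, called or not, at 27 of these 35 sites and at 5224 of the 11732 sites of all genes. The largest change was at Stc2, in an intron 373 bases after the start (chromosome 11:31269151-31270225): the control libraries read 4.29, 4.18 and 4.28 and the KO libraries 4.78, 4.77 and 4.74 on the deposited log2 scale, a difference of 0.51 ± 0.08 with no overlap (adjusted p = 1.84e-08). Slc7a11 held 4 of the 11 sites, one in an intron (0.35), one across the start and the promoter stretch with the 2 elements (0.27) and 2 far upstream, at -164391 and -172084 bases from the start (0.31 and 0.25). The intronic one read 5.79, 5.66 and 5.60 in control and 5.81, 6.02 and 6.27 in KO, so the groups stood apart by a small step and the KO libraries spread widely. The others were a second Stc2 site (0.20) and single sites of Cth (0.18), Ddit4 (0.25), Eprs (0.24), Phgdh (0.27) and Sars (0.22). The most open promoter of the 36 genes, at Ddit3, read 8.46 ± 0.07 in control and 8.59 ± 0.03 in KO (n = 3; limma, adjusted p = 0.235). Asns, whose RNA rose 2.62-fold, read 6.23 ± 0.06 and 6.27 ± 0.08 at its start (adjusted p = 0.837).

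In ChIP-seq sites are described as past 1.5-fold, and tested where the libraries allow it. In 7 of the 12 groups the 2 libraries differed by no more than sampling noise (chi-square per site 0.823 to 0.960), and they were counted as 1 sample: all PU.1 groups, and JunB in WT and in both LPS groups. In the other 5, untreated KO for JunB and both groups for MED1 and for RNA polymerase II, they differed by more (1.03 to 1.16), and limma was run with them as 2 samples, a test chosen after these values were seen. These values lie little above sampling noise, so the limma p-values measure only the spread between 2 libraries, which may be technical. Sites are compared after scaling that sets the typical site equal, while the share of reads in sites differed between groups: for JunB it was 6.91% to 7.51% in WT, 5.79% to 6.01% in KO, 28.8% to 29.2% in WT with LPS and 25.2% to 26.4% in KO with LPS. JunB, an AP-1 subunit, was past 1.5-fold higher at 47 and lower at 20 of 142 sites in untreated KO (background 21.5% and 20.8%). Much of this lay at promoters, for these genes as for others: within 1 kb of a start 25 of 37 sites (67.6%) were higher, against 57.0% of the 7870 such sites of all genes, and farther away 22 of 105 (20.95%) against 16.1%. With scaling by library totals 21 were past the fold higher and 36 lower (7458 and 18360 of 58810 over all sites). With the 2 KO libraries against WT as 1 sample, which is assumed to vary like KO, limma called none of the 142 sites in either direction, and 8 higher (0.0136%) and 4 lower (0.0068%) over all sites; 14 of the 142 and 3834 of 58810 had an unadjusted p under 0.05. That fit had 1 residual degree of freedom and so little power, and the lack of calls cannot decide whether these sites changed. At the Slc7a11 promoter (chromosome 3:50247414-50247755), over the 2 elements, JunB read 26.8 and 22.2 normalised reads in WT and 56.3 and 35.6 in KO. Psph (30.5 and 23.6 against 82.4 and 86.4), Trib3 (17.1 and 18.1 against 42.2 and 48.3) and Atf4 (23.2 and 9.72 against 44.2 and 43.2) had the same direction at their starts. Ddit3 had the highest JunB promoter site of the 36 genes, which did not differ by the fold (104 and 113 against 82.4 and 117). The largest ratios by size rest on few reads: 9 reads in KO against 1 in WT at a site 76405 bases from Cth, 4 against 0 upstream of Ddit4 and 12 against 3 in an intron of Mthfd2.

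With LPS JunB was higher at 13 and lower at 18 of the 142 sites (background 13.7% and 9.63%). With library totals the counts were 10 and 29 (6172 and 9697 of 58810 over all sites). Of the 37 promoter sites none was higher and 2 lower, against 6.57% and 5.53% of the 7870 such sites of all genes. The 13 included 3 distal sites of Cth, the one with most reads having 232 against 98, and 3 of Stc2. PU.1, the macrophage lineage factor, was higher at 12 and lower at 4 of 115 sites in untreated KO (background 7.41% and 10.1%). The counts were 1 and 48 with library totals (409 and 23554 of 52009 over all sites), under which the median of all sites moved to -0.54. The share of PU.1 reads in sites was 24.8% to 25.2% in WT and 17.2% to 17.5% in KO. With LPS PU.1 was higher at 15 and lower at 16 (background 14.8% and 11.8%), or 3 and 40 with library totals (2912 and 17996 of 52009 over all sites). Near Cth 4 PU.1 sites were higher in KO with LPS, the largest change 155426 bases downstream of the start: 9.69 and 4.23 in WT with LPS against 30.5 and 26.4 in KO with LPS, log2 1.89, still 1.47 with library totals. An intronic site of Tars went the other way, 35.1 and 26.5 against 6.93 and 8.34 (log2 -1.88). The highest PU.1 promoter site, at Aldh18a1, read 49.8 and 40.1 in WT, 42.2 and 60.6 in KO, 46.0 and 40.2 in WT with LPS and 34.7 and 45.9 in KO with LPS, with no difference past the fold.

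MED1, a subunit of the Mediator complex that links enhancers to polymerase, was measured with LPS. It was higher in KO at 4 and lower at 6 of 67 sites tested (background 9.14% and 7.28%). With library totals the counts were 0 and 46 (257 and 17135 of 26052 over all sites), with 14.6% of reads in sites in WT and 8.81% to 8.92% in KO. The broad site over the Atf3 start (chromosome 1:193003306-193011574) read 278 and 271 in WT and 402 and 475 in KO, log2 0.68, but -0.09 with library totals. In limma, 2 libraries against 2, 5 sites were called higher and 3 lower (background 4.47% and 1.93%), or 0 and 49 with library totals (163 and 17429 of 26052 over all sites). Of the 4 sites past the fold higher it called 2, at Atf3 (adjusted p = 5.49e-08) and Slc3a2, and of the 6 lower it called 2, at Slc7a11 and Psph. The other higher sites belonged to Phgdh (1.03), Gars (0.86) and Slc3a2 (0.70), and the lower ones to Slc7a11 (-1.40 and -0.94), Psph (-1.17), Shmt2 (-0.96), Ddit4 (-0.91) and Slc7a5 (-0.72).

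RNA polymerase II was also measured with LPS for 2 h. It was higher in KO at 13 and lower at 18 of 63 sites (background 23% and 20.5%). The share of reads in sites was 45.0% to 46.4% in WT but 14.2% to 14.4% in KO. With library totals the counts were 2 and 55 (608 and 20791 of 23081 over all sites), and 3 of the 13 higher sites kept their sign. In limma 16 sites were called higher and 18 lower (background 21.6% and 20.5%), among them all 13 past the fold higher and 15 of the 18 past it lower. With library totals the calls were 3 and 58 (622 and 20746 of 23081 over all sites). Those 3 were at Slc7a11 and Atf3. Over the 5′ part of Slc7a11 (chromosome 3:50230169-50248427) polymerase read 177 and 154 in WT and 1195 and 1128 in KO, log2 2.80 and 0.92 with library totals, and a second site in the gene read 27.02 and 22.8 against 165 and 218 (2.89 and 1.04). Over Atf3 (chromosome 1:192989477-193011737) it read 701 and 716 against 3527 and 3335, log2 2.27 and 0.39 with library totals. Both genes were also higher in RNA after 6 h, by 0.40 and 0.35; the times differ. The other higher sites, which turned lower with library totals, were 4 upstream of Slc7a11, a second near Atf3, and 1 each of Nupr1, Cth, Slc7a5, Slc3a2 and Ppp1r15a.

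The 18 lower polymerase sites belonged to 14 genes, 6 synthetases, 5 enzymes and 3 regulators. Sites of Mthfd2, Stc2 and Psph were the 3 of the 18 that limma did not call. Chac1 (chromosome 2:119175252-119184561) had the largest decrease, from 324 and 378 in WT with LPS to 95.6 and 91.7 in KO with LPS (log2 -1.89, counting interval -2.21 to -1.62, which covers counting error only). A site upstream of Sesn2 went from 133 and 136 to 46.0 and 46.7 (log2 -1.52), the Asns start from 74.6 and 68.0 to 26.6 and 38.1 (-1.12) and a site of Mthfd2 from 272 and 232 to 117 and 121 (-1.08). Of the synthetases, Cars (-1.001), Lars (-0.86), Gars (-0.84), Tars (-0.84), Mars (-0.82) and Aars (-0.70) had a site past the fold. At Mars, whose promoter site was the highest within 1 kb of a start, the values were 283 and 267 against 172 and 138. Ddit4, whose RNA changed by -1.89 in KO after 6 h, read 135 and 132 against 127 and 100.3 in polymerase, and Trib3 read 55.5 and 44.7 against 35.4 and 38.1; neither was past the fold or called by limma (adjusted p = 0.199 and 0.116). Nupr1 and Atf4 read higher in polymerase (0.97 and 0.57, the second under the fold) and lower in RNA after 6 h (-0.90 and -0.77), and both polymerase values turned negative with library totals.

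**Figure D5:**
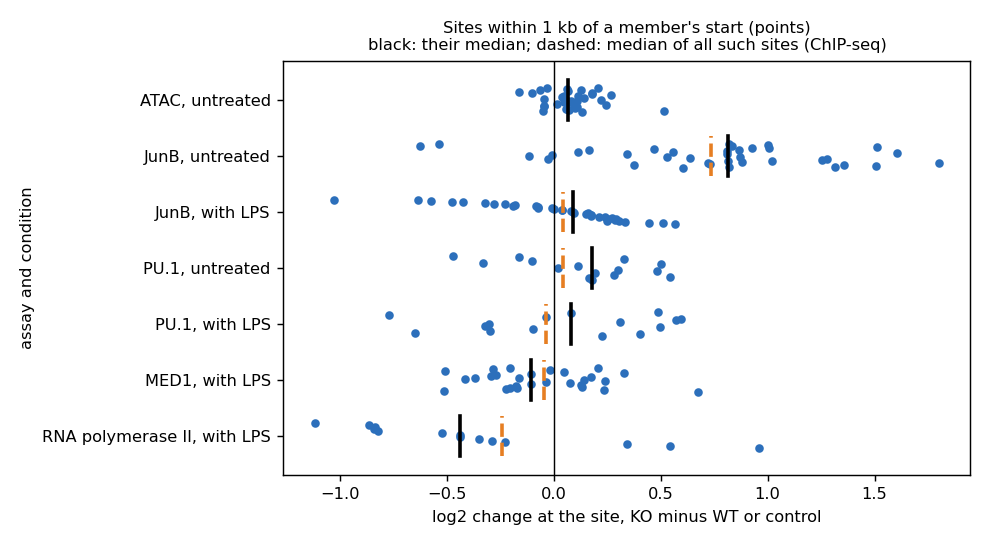
Log2 change at each site within 1 kb of a transcription start of the genes (points), KO against WT or control, for each assay and condition; black ticks are the median of these sites and dashed ticks that of all such sites in the table (ChIP-seq only). JunB sites in untreated KO have a median of 0.82 beside 0.73 for all promoters, and RNA polymerase II sites with LPS have -0.44 beside -0.24.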

How the data were processed

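The 6 tables used here cover 46 of the 247 samples of the series. Bowtie2, HISAT2, BWA, HOMER, MACS2, DESeq2 and edgeR, and the mouse build mm9, are named in the submitters' processing notes with no versions; which step used which tool, and whether reads were counted by strand, is not given in the sources used here. The RNA-seq and ChIP-seq tables deposited by the authors hold reads per 10000000 mapped reads, treated as a score; every value of up to 200 reads came out within 0.05 of a whole read. The ATAC-seq table deposited by the authors holds log2 values whose exact transformation is not given in the sources used here. In all, 8 rescaled columns were not used.

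RNA values were divided by TMM scaling factors and tested on log2(value + 1) with limma 3.58.1 in R 4.3.3 (trend and robust, 16 libraries in 1 fit, Benjamini-Hochberg adjustment over 11791 genes whose values, at the median library size, came to 10 reads in at least the smallest group's number of libraries and to 15 over all of them). ATAC-seq values were tested with limma, 3 against 3. ChIP-seq values were scaled in the same way and compared by ratio, with 95% Clopper-Pearson intervals of counting error, and by limma where a group's 2 libraries differed beyond sampling noise (chi-square test of their reads). Mapped reads ran from 4038810 to 7108590 (ATAC-seq), 8096412 to 10390099 (PU.1), 8649109 to 16006528 (JunB), 9793481 to 11932296 (MED1) and 10230550 to 11113648 (RNA polymerase II). Tables were prepared in Python 3.11.15 (numpy 2.4.6, pandas 2.3.3, scipy 1.17.1) and drawn with matplotlib 3.10.9. The tests were also run on simulated data, with libraries drawn independently and none that stood apart. Those runs cannot show how the p-values behave where a library stands apart or where the spread is technical.

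The genes and lists were chosen with earlier results of these data known. Values of all libraries are given for up to 5 genes of each role with the largest called change in either KO comparison and for Atf3, Atf4, Ddit3, Asns and Slc7a11; from each wider list the 2 genes with the largest called change are named. Of the sites, the highest near a start and up to 3 with the largest changes per assay are named; further sites were added after their values were seen. Alternatives were other scalings, filters, pseudocounts, folds, a replicate block and leaving out each library.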

Additional observations from a re-analysis of the deposited data

Results flagged for a closer look

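In 12 of 140 groups of 4 libraries, 1 library's value lay farther from the others than Dixon's 95% limit for 4 samples; chance alone gives about 1 in 20. Of the 12, 8 were the fourth library of WT with LPS. It was high for Ddit3 (621 normalised reads), Nupr1 (3525), Phgdh (780.2), Psph (759) and Slc3a2 (4663), and for Yars the value was 1675. It was low for Aars (1503) and Wars (1616). The other 4 were Ppp1r15a in WT library 3 (205), Slc7a11 in the third KO library (1283), Slc3a2 in the fourth WT library (1811) and Nars in the second WT library (4221).

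The LPS response differed between KO and WT, by limma's test of the interaction, in 33 genes, all lower in KO. On the log2 scale the regulators gave -0.89 for Atf3, -1.43 for Atf4, -1.79 for Atf5, -2.68 for Ddit3, -3.02 for Ddit4, -3.76 for Trib3, -3.09 for Chac1, -1.86 for Sesn2, -1.93 for Nupr1, -1.11 for Ppp1r15a and -0.76 for Stc2. The enzymes gave -1.56 for Asns, -0.33 for Psat1, -0.64 for Phgdh, -1.32 for Psph, -0.73 for Shmt2, -1.16 for Mthfd2, -0.99 for Aldh18a1, -0.69 for Pycr1 and -3.81 for Cth. The transporters gave -2.71 for Slc7a11, -1.21 for Slc3a2 and -0.73 for Slc7a5. The synthetases gave -1.32 for Aars, -1.58 for Cars, -0.91 for Gars, -0.76 for Lars, -0.44 for Mars, -1.25 for Nars, -0.96 for Sars, -0.88 for Tars, -0.83 for Wars and -0.83 for Yars. Each response contains its own untreated group, so these values are not independent of the untreated difference.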

How the results depend on the processing

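Of the counts of genes or sites under the alternatives, 288 stayed within 1.5 times the reported count and 54 did not; of the changes of single genes, 3913 kept direction and call, 45 lost and 29 gained the call, and 3 reversed. The 3 were the LPS response in WT of Cars (-0.13), Gars (-0.19) and Lars (-0.28) with library totals, under which 11 genes were higher and 16 lower with LPS in WT. Leaving out 1 library at a time gave 35 higher in untreated KO; 4 to 7 higher and 15 to 20 lower in KO with LPS; 21 to 24 and 6 to 7 for LPS in WT; 3 and 29 to 31 for LPS in KO; and 33 to 35 lower responses. With only the groups compared in the fit, the calls over all genes were 3694 higher and 3577 lower untreated and 1568 and 1631 with LPS, against 2122, 2058, 2600 and 2603.

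ATAC-seq sites called higher numbered 3 when the spread was not modelled on the mean (1423 higher and 1116 lower over all sites, against 2960 and 2311), and 3 to 9 with 1 library left out: 3 without the first control library, 7 without the second control, the first KO or the second KO library. ChIP-seq counts at 2-fold, with library totals and with a pseudocount of 10 were, in that order, 4, 1 and 5 higher and 0, 48 and 0 lower for untreated PU.1; 3, 3 and 4 higher and 3, 40 and 9 lower for PU.1 with LPS; 20, 21 and 29 higher and 6, 36 and 4 lower for untreated JunB; and 1, 0 and 2 higher and 2, 46 and 2 lower for MED1. JunB with LPS gave 4 higher at 2-fold and 5 with the pseudocount, and 2, 29 and 3 lower. Over all 58810 JunB sites, in the same order, 6323, 7458 and 6363 were higher and 5411, 18360 and 4348 lower untreated. With LPS they were 2450, 6172 and 2379 higher and 902, 9697 and 1496 lower. RNA polymerase II gave 8 higher and 8 lower at 2-fold and 2 higher and 55 lower with library totals. Over all 23081 polymerase sites these were 3005 and 1751, and 608 and 20791. All 52009 PU.1 sites gave, in the order above, 636, 409 and 1173 higher and 1195, 23554 and 1654 lower untreated. With LPS they gave 2798, 2912 and 3813 higher and 1454, 17996 and 2519 lower. All 26052 MED1 sites gave 603, 257 and 1009 higher and 334, 17135 and 491 lower. Tested with limma, in an alternative added after the data were seen, untreated JunB gave 0 and 0 with both scalings, MED1 5 and 3, or 0 and 49 with library totals, and RNA polymerase II 16 and 18, or 3 and 58 with library totals. With 1 library left out, untreated PU.1 gave 2 to 11 lower (2 without the first WT, 8 without the second WT and 11 without the first KO library), PU.1 with LPS 7 to 20 higher (7 without the first KO library) and JunB with LPS 12 to 20 higher (20 without the first KO library). In the settings in brackets, 5723, 5696 and 6993 of all 52009 PU.1 sites were lower untreated. With LPS 8421 of them, and 8483 of all 58810 JunB sites, were higher. The cause of these shifts was not tested.

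With a replicate block the RNA counts were 35 and 0, 5 and 15, 21 and 6, 3 and 30, and 0 and 33 higher and lower in the order above, and 11 ATAC-seq sites were higher; Asns with LPS was the 1 call lost. The labels do not say whether a replicate number marks a shared culture or day. Deviations of same-numbered RNA libraries from their group means correlated at -0.367 to 0.211, with 1 of 24 pairs over 0.1. Of the 24, 4 were best with their own number. These values show no pairing by number, but so few libraries a group cannot exclude one. The planned count-model alternatives on the recovered reads were not run. In ChIP-seq, few reads at distal sites limit what their ratios show.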
